A study of Homo sapiens with 2 samples.

Results

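The last 9 Mb of the long arm of chromosome 22, called distal 22q here, held 2356 of the 258195 peaks of acetylated lysine 5 of histone H4 (H4K5ac) in hypoxic FaDu cells and 863 of the 120033 peaks in normoxic cells. Together these were 3219 of 378228 peaks. The members were chosen by position: every peak on chromosome 22 with its summit at or beyond 42 Mb in hg38, up to the end of the chromosome short of 51 Mb. The region itself was selected on the peak numbers of these 2 lists, so its numbers are a description and are given with no test. The first hypoxia member was chr22:42008617-42009104 (fold over local background 3.91), and the last hypoxia peak outside the edge was chr22:41998363-41999395 (fold 12.9). In normoxia they were chr22:42021843-42022971 (fold 5.14) inside and chr22:41998195-41999530 (fold 10.1) outside.

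The study used chromatin immunoprecipitation and sequencing in FaDu, a cell line long kept in culture from a human carcinoma of the hypopharynx. There was 1 library from cells kept at 1% O2 for 18 h (hypoxia) and 1 library from cells in normoxia. Both libraries share the cell line, and no label gives either a genotype change: the culture protocol mentions knockdown of METTL4, a methyltransferase gene, without tying it to a library. The sample labels name H4K5ac as the target, whereas the design text of the series names another histone mark. With 1 library per condition, differences between conditions have no replicate check, no p-values are given, and intervals cover counting error only.

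Acetylation of histone H4 at lysine 5 is written by histone acetyltransferases such as those of the TIP60 and HBO1 complexes and read by bromodomain proteins of the BET family. It is found at active promoters and enhancers, and also on newly made H4 that is being placed on replicated DNA. Cells in low oxygen stabilise the hypoxia-inducible factors, which bind a short DNA element, the hypoxia response element, whose core reads ACGTG or GCGTG. Distal 22q ends at a telomere. Its genes include BRD1, a bromodomain protein that is part of histone acetyltransferase complexes, PPARA, a nuclear receptor for fatty acids, and SHANK3, a scaffold of the synapse.

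Promoter sequences are shown for the 5 genes of the region that had a hypoxia peak and no normoxia peak in their promoter windows, together with PPARA, which had both, and TAFA5, which had neither although its span held 63 hypoxia peaks. TAFA5 encodes a secreted chemokine-like protein of the brain. Each sequence is the 250 bases before a transcription start, 5′ to 3′ on the gene's strand, from RefSeq (GRCh38.p14, the assembly that hg38 names). Capitals mark ACGTG or GCGTG on either strand, so CACGT and CACGC are also in capitals, and CACGTG counts as 2 matches.
PKDREJ (chr22:46263344-46263593, minus strand): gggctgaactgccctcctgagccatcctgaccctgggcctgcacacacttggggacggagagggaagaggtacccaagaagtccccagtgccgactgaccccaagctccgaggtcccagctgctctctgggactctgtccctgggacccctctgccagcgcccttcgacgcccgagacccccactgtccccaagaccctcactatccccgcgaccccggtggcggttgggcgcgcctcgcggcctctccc
MAPK11 (chr22:50270381-50270630, minus strand): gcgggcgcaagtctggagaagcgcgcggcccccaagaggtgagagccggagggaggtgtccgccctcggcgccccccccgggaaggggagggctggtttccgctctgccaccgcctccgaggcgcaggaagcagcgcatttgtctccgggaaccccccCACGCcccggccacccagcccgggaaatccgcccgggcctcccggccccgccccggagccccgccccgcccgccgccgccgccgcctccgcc
SYCE3 (chr22:50562920-50563169, minus strand): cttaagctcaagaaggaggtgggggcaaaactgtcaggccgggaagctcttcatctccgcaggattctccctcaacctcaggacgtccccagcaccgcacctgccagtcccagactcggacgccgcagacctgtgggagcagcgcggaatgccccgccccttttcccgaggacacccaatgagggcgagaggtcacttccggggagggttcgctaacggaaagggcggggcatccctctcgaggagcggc
SBF1 (chr22:50475036-50475285, minus strand): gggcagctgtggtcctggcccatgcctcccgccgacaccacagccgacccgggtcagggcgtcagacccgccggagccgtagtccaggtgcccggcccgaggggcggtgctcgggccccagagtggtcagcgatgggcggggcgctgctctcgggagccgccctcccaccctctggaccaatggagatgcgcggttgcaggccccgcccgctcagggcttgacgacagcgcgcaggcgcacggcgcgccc
TTLL8 (chr22:50058299-50058548, minus strand): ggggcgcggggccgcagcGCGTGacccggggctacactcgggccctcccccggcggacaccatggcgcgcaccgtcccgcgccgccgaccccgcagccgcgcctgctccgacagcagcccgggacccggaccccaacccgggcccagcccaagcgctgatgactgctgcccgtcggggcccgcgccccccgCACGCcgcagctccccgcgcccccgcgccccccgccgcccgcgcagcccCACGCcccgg
PPARA (chr22:46150276-46150525, plus strand): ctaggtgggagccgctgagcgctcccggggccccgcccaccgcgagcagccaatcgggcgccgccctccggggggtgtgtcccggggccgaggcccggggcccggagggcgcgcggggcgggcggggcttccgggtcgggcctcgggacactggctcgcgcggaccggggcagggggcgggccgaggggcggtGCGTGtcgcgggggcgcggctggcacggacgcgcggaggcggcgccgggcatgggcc
TAFA5 (chr22:48489303-48489552, plus strand): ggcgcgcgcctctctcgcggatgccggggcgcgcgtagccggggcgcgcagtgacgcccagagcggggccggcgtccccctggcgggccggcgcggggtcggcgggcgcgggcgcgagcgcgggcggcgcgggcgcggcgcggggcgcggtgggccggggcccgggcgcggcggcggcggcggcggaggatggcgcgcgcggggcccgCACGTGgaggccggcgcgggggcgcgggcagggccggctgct
The core was present 3 times before TTLL8, 1 time before MAPK11, 1 time before PPARA and 2 times before TAFA5, and was not in the windows shown for PKDREJ, SYCE3 and SBF1. Of the 74 region genes with a promoter window, 45 (60.8%) held it in at least 1 window, against 56.8% of 15812 protein-coding genes with a window genome-wide. Over all 34961 promoter windows of any gene type the share was 43.2%. These are matches of letters and not sites of binding.

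Near PPARA lies a microRNA host gene, MIRLET7BHG (chr22:46085997-46113928), whose let-7 members repress many growth genes after transcription. Of the 10 microRNA hairpins of the region for which the RefSeq sequence table has an entry, 2 were overlapped by a hypoxia peak and 1 by a normoxia peak. The share over all hairpins of the genome was not computed, so these numbers are a description only. The mature sequences of the let-7 members and of miR-4535 follow, with the seed (bases 2 to 8) in capitals.
hsa-let-7a-5p (chr22:46112752-46112773, plus strand): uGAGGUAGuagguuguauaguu
hsa-let-7b-5p (chr22:46113691-46113712, plus strand): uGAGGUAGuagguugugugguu
hsa-miR-4535 (chr22:48780331-48780347, plus strand): gUGGACCUggcugggac
The let-7 pair shares 1 seed, while miR-4535 has another. The MIR4535 hairpin lay inside a hypoxia peak (chr22:48780146-48780526, fold 2.37, −log10 q-value 3.67), and its nearest normoxia peak was 6619 bp away. The 250-kb bin around it had 72 hypoxia and 12 normoxia peaks, so a normoxia peak was seldom near. Neither let-7 hairpin was overlapped: the nearest hypoxia peak was 1560 bp from MIRLET7A3 and 614 bp from MIRLET7B, and the nearest normoxia peak was 3008 bp and 2062 bp away. The hairpin of MIR6821 was under a peak in both lists, with a fold of 2.00 in hypoxia and 2.14 in normoxia.

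Distal 22q had 2.73 times as many H4K5ac peaks in hypoxia as in normoxia (95% interval 2.52 to 2.95). On the rest of chromosome 22 there were 3119 hypoxia and 1398 normoxia peaks, a ratio of 2.23 (2.09 to 2.38), and over both whole lists the ratio was 2.15. A peak is called strong here where its −log10 q-value, the authors' measure within each list, reached 10. There were 513 strong hypoxia and 275 strong normoxia members, a ratio of 1.87 (1.61 to 2.17), against 1.63 in the whole lists. When the hypoxia list was limited to as many peaks as the normoxia list holds, taking the lowest p-values first, 1335 hypoxia members remained beside the 863 normoxia members. Their ratio was 1.55 (1.42 to 1.69), where the whole lists give 1.00 by construction and the rest of chromosome 22 gives 1.09. The members covered 1033 kb in hypoxia and 471 kb in normoxia, a ratio of 2.19, against 1.69 in the whole lists.

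The local background under the members was high in both libraries. Background and pileup (reads covering the summit) were solved from the authors' fold and p-value of each peak. Members had a median background of 16.2 reads in hypoxia and 15.1 reads in normoxia, whereas all peaks of the lists had 4.17 and 5.07 reads, and the rest of chromosome 22 had 6.49 and 8.15. The median fold was low, at 2.58 for hypoxia members and 2.71 for normoxia members, against 3.49 and 3.36 for the lists. At the 746 pairs of overlapping members the hypoxia background was a median 1.33 times the normoxia background (quartiles 1.06 and 1.57), while the 88528 pairs of the whole lists had a median of 1.04. On the rest of chromosome 22 the median was 1.14. The 1.04 is also the ratio of the lowest backgrounds of the lists, 3.24 reads in hypoxia and 3.13 reads in normoxia. The whole-list median thus lies at that floor, whereas the members were mostly above it, so the 2 medians are not on equal terms. Both the background ratio and the peak ratio of the region were above those of the rest of chromosome 22. The part of the background in the peak numbers was not tested.

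Cut into 250-kb bins, distal 22q held a median of 68 hypoxia and 27 normoxia peaks per bin, against 26 and 11 in the bins of the genome with at least 10 peaks in both lists together. Of the 35 such bins in the region, 18 had at least 2.5 times as many hypoxia as normoxia peaks, and 36.5% of the 8997 such bins genome-wide did. At least 5 times as many hypoxia peaks were found in 7 of the 35, beside a genome-wide share of 9.28%. All of these 7 lay next to each other, from 48 to 49.75 Mb. Hypoxia had between 4 and 90 peaks a bin and normoxia between 2 and 41, the lowest of each in the last, partly filled bin.

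**Figure D1:**
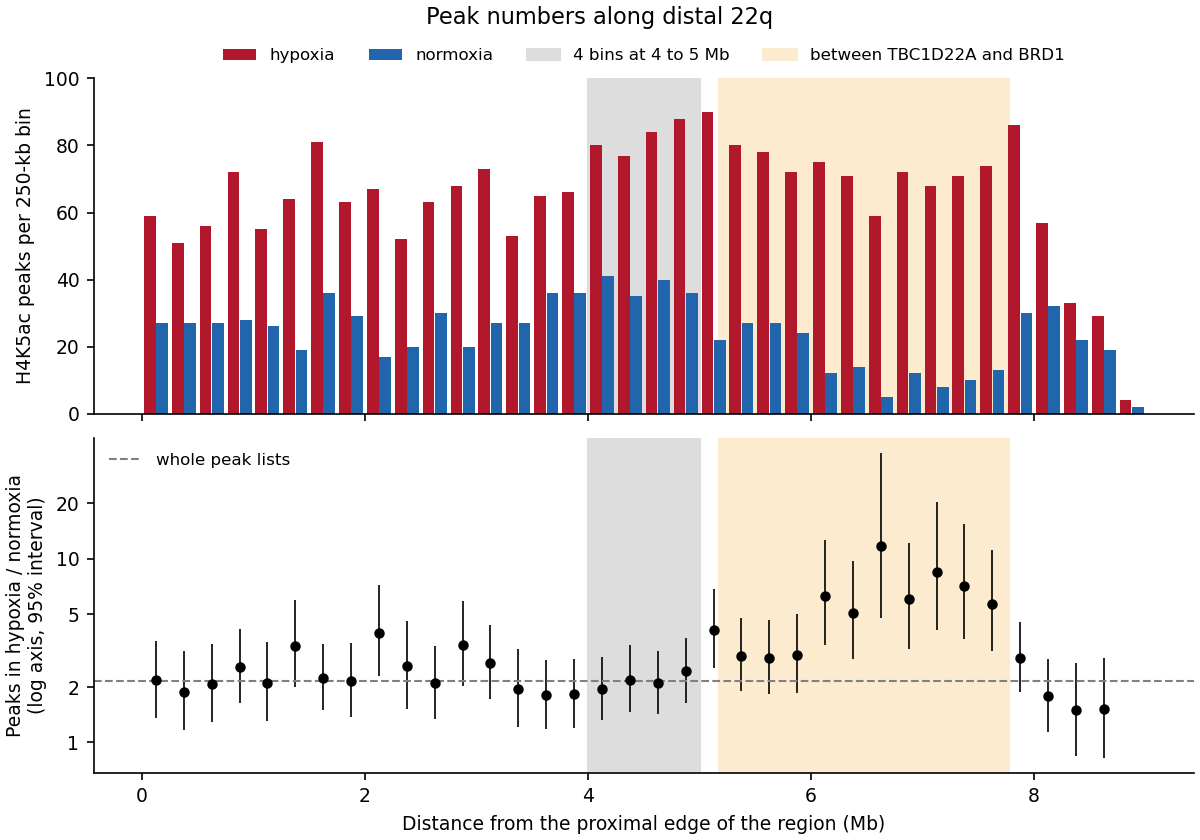
Top: H4K5ac peaks per 250-kb bin (bars, hypoxia and normoxia) against the distance from the proximal edge of distal 22q in Mb. Bottom: the ratio of the 2 numbers in each of the 35 counted bins on a log axis, with 95% intervals that cover counting error only, and the ratio of the whole lists (2.15) as a dashed line. Hypoxia numbers stay between 51 and 90 except in the last 3 bins, while normoxia numbers drop to between 5 and 14 in the 7 bins with the highest ratios.

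The 4 bins from 46 to 47 Mb were the densest stretch of the region in normoxia. They held 80, 77, 84 and 88 peaks in hypoxia and 41, 35, 40 and 36 in normoxia. Over the 4 bins this was 329 hypoxia and 152 normoxia peaks, a ratio of 2.16 (1.78 to 2.64), close to that of the whole lists. The other 32 bins had a median of 66.5 hypoxia peaks (4 to 90) and 25 normoxia peaks (2 to 36). All 4 bins were thus above the median of the others in both libraries, and in normoxia 2 of them exceeded every other bin.

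These bins also had many strong peaks and a high background. There were 33, 33, 26 and 25 strong peaks in the hypoxia bins and 20, 15, 21 and 9 in the normoxia bins, whereas the other bins had medians of 12.5 and 6. The median background of the 4 bins was 41.2, 34.3, 43 and 21.6 reads in hypoxia and 69.6, 34.3, 39.4 and 19.1 reads in normoxia. Among all counted bins these stood at percentiles of 99.4 to 99.9 in hypoxia and 99.2 to 99.98 in normoxia. In the first bin the median was thus lower in hypoxia, whereas at its 44 overlapping pairs the hypoxia background was a median 1.09 times the normoxia background. Of the 46 to 47 Mb peaks, 42.2% in hypoxia (36.9 to 47.8%) and 86.8% in normoxia (80.4 to 91.8%) overlapped a peak of the other list. All 65 strong normoxia peaks there were overlapped, near the 98.3% of the whole normoxia list.

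**Figure D2:**
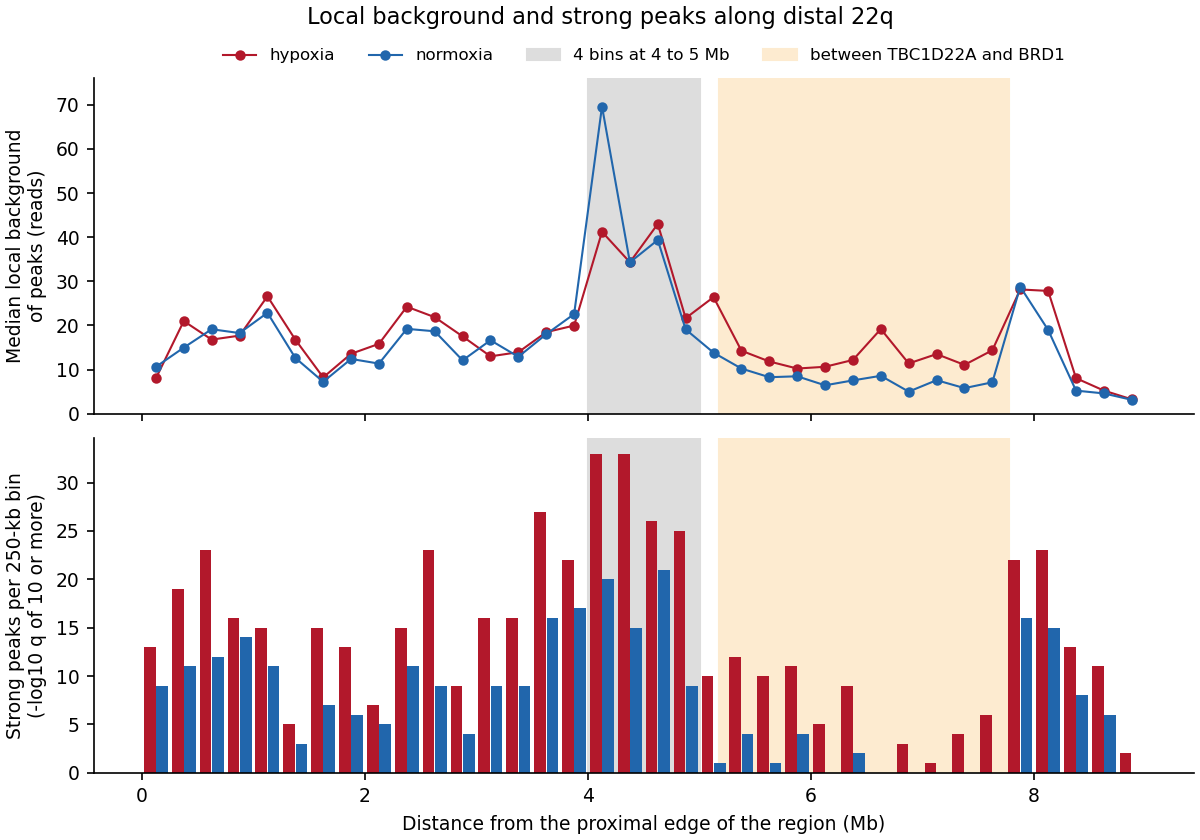
Top: median local background of the peaks in each 250-kb bin, in reads, for hypoxia and normoxia. Bottom: strong peaks per bin (−log10 q-value of at least 10). Both are drawn against the distance from the proximal edge in Mb; the highest backgrounds, up to 43 reads in hypoxia and 69.6 reads in normoxia, and the most strong peaks lie in the grey stretch, and the orange stretch between TBC1D22A and BRD1 has 64 strong hypoxia and 11 strong normoxia peaks.

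Of the region's genes, 11 have an end between 46 and 47 Mb, and 10 of these carried peaks in both conditions. LOC124905135, a predicted gene that ends with MIRLET7BHG, held 24 peaks in hypoxia and 21 in normoxia, of which 16 and 11 were strong. It also held the highest background of the region: the peak chr22:46081470-46081820 had 281 reads over a background of 182 in hypoxia, and chr22:46081460-46081906 had 269 reads over 182 in normoxia. Within MIRLET7BHG, 7 hypoxia and 4 normoxia peaks were called. At the host gene's low-coordinate end 1 hypoxia peak (chr22:46084597-46086637) covered nearly the same stretch as 2 normoxia peaks (chr22:46084662-46085863 and chr22:46085967-46086703). All 4 normoxia peaks of the host gene were overlapped, and 3 of the hypoxia peaks were not.

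PPARA, which switches on fatty acid oxidation, held 36 hypoxia and 11 normoxia peaks over 93.2 kb. Its 2 promoter windows were marked in both: the first under peaks with a fold of 3.58 in hypoxia and 2.72 in normoxia, the second with 4.39 and 4.53. PKDREJ, a polycystin-family gene of sperm, was the exception among the 11 genes, with 3 hypoxia peaks and no normoxia peak. A hypoxia peak (chr22:46263102-46263521, fold 2.99, −log10 q-value 14.6) covered part of the promoter sequence shown above, and a second (chr22:46262388-46262803) reached a fold of 4.19. The nearest normoxia peak to that promoter window was 3909 bp away.

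The other genes of the stretch also carried more peaks in hypoxia. GTSE1, a microtubule-binding protein of dividing cells, held 14 hypoxia and 7 normoxia peaks, with promoter peaks of fold 6.18 in hypoxia and 5.38 in normoxia. TRMU, a mitochondrial transfer RNA-modifying enzyme, had 6 and 3 peaks, TTC38 had 5 and 2, and CDPF1 had 2 and 1. CELSR1, an atypical cadherin of planar cell polarity, held 65 hypoxia and 32 normoxia peaks, and 30 and 14 of these were strong. GRAMD4, a mitochondrial protein linked to cell death, had 32 and 19 peaks. CERK, which encodes ceramide kinase, had 23 hypoxia peaks and 3 normoxia peaks, and strong peaks numbered 4 and 3. TBC1D22A, of the family that acts on Rab GTPases, spans 413 kb across the 47 Mb mark and held 152 and 47 peaks, of which 31 and 9 were strong.

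Beyond TBC1D22A lies a stretch with few protein-coding genes. The 2.60 Mb between the spans of TBC1D22A and BRD1 (chr22:47175700-49773277) contains a single protein-coding gene, TAFA5, with 20 annotated long non-coding RNAs, 3 microRNAs and 3 pseudogenes. This interval was singled out after its values were seen, with the annotation setting its bounds. It held 756 hypoxia peaks and 164 normoxia peaks, a ratio of 4.61 (3.89 to 5.49), or 291 and 63.1 peaks per Mb. The strong ones were 64 and 11, a ratio of 5.82 (3.04 to 12.2). Without the interval, distal 22q had 1600 hypoxia and 699 normoxia peaks, a ratio of 2.29 (2.09 to 2.51).

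Within the interval, the ratio was higher away from TBC1D22A, where the normoxia numbers were lower. From 47.25 to 48 Mb the 3 bins held 230 hypoxia and 78 normoxia peaks, a ratio of 2.95 (2.27 to 3.86). The 7 bins from 48 to 49.75 Mb, picked out by their ratio, held 75, 71, 59, 72, 68, 71 and 74 hypoxia peaks and 12, 14, 5, 12, 8, 10 and 13 normoxia peaks, a pooled ratio of 6.62 (5.18 to 8.57). The choice of these bins fixes that their hypoxia numbers were the higher ones and that the pooled ratio was high. They had 28 strong hypoxia peaks and 2 strong normoxia peaks. Their bin backgrounds were 10.6 to 19.2 reads in hypoxia and 4.99 to 8.57 reads in normoxia, so that the hypoxia median was 1.62 to 2.28 times the normoxia one, over peaks that differ between the lists. At the overlapping pairs of these bins, of which there were between 1 and 9 a bin, the ratio was 1.47 to 1.99, and at the 112 pairs of the whole interval it was 1.38. The part of this background in the peak numbers was not tested.

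Bins without protein-coding genes usually hold few peaks. Over the 1646 counted bins that no protein-coding span touches, the medians were 15 hypoxia and 6 normoxia peaks, and 41 bins had 50 or more hypoxia peaks. Distal 22q has 7 such bins, all within the interval, and all 7 were among the 41. As the region was selected on peak numbers, this is a description only. Of the 7, 4 had at least 5 times as many hypoxia peaks, beside 19.7% of the 1646 bins. These 4 are among the bins from 48 to 49.75 Mb picked out by that ratio, so their number restates that choice. Bins of this kind can hold other genes: the long non-coding genes EPIC1 and MIR3667HG lie in some of the 7.

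Most hypoxia peaks of the interval had no partner in normoxia. Only 14.3% (11.9 to 17.0%) overlapped a normoxia peak, and 648 were not overlapped. The share was 37.1% (34.8 to 39.5%) in the remainder of distal 22q and 32.7% in the whole hypoxia list. With fewer normoxia peaks to meet, the share of the interval can only be low, so it largely restates the ratio for which the interval was singled out. Of the strong hypoxia peaks, 32 of 64 were overlapped (50%, 37.2 to 62.8%), against 83.7% in the remainder and 86.6% in the whole list. The strong peaks also had fewer normoxia peaks to meet, so their share is not independent of that ratio. The normoxia peaks of the interval were overlapped in 64.0% of cases (56.2 to 71.4%), against 83.4% (80.4 to 86.1%) in the remainder. In the whole normoxia list 68.7% were overlapped, so the interval was near that share and the remainder was above it. With equal list lengths the interval kept 342 hypoxia peaks beside 164 normoxia peaks, and its ratio was 2.09 (1.73 to 2.53). Peaks overlapping lncRNA spans made up 28.6% of its hypoxia peaks and 33.5% of its normoxia peaks, and these spans cover 25.6% of its length.

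TAFA5 carried 63 hypoxia peaks and 7 normoxia peaks over 262 kb. None of the hypoxia peaks was strong, and the highest fold among them was 3.25. One of the normoxia peaks was strong (chr22:48492626-48493223, fold 4.13, −log10 q-value 13.5), and no hypoxia peak overlapped it. Neither of the 2 TAFA5 promoter windows held a peak: for the sequence shown above, the nearest hypoxia peak was 779 bp away and the nearest normoxia peak 3023 bp away. Leaving out the TAFA5 span, the interval had 693 hypoxia and 157 normoxia peaks and a ratio of 4.41 (3.71 to 5.28).

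The long non-coding genes of the interval differed in their numbers. EPIC1, an lncRNA gene described in cancer cells, held 74 hypoxia and 29 normoxia peaks over 224 kb, of which 9 and 4 were strong. MIR3667HG, host of MIR3667, held 70 and 15 over 243 kb, with 7 and 0 strong. LINC01310 had 12 hypoxia peaks and 1 normoxia peak, LOC339685 had 12 and 4, and LOC124900480 had 8 and 0. EPIC1, in the part nearer TBC1D22A, was the one with the most normoxia peaks of the 20.

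At the far side of the interval the ratio was nearer that of the whole lists. From BRD1 to the end of the chromosome there were 198 hypoxia and 102 normoxia peaks, a ratio of 1.94 (1.52 to 2.49), with 71 and 45 strong ones. BRD1 itself held 24 hypoxia and 5 normoxia peaks. Its promoter windows were marked at a fold of 5.08 in hypoxia and 4.27 in normoxia for the first, 3.92 and 4.15 for the second, and neither list marked the third. Overlap was higher here than in the other stretches described, at 47.5% of hypoxia (40.4 to 54.7%) and 91.2% of normoxia peaks (83.9 to 95.9%), and the background at overlapping pairs was in hypoxia a median 1.55 times that in normoxia. The bins of the last 0.75 Mb with at least 10 peaks had 33 and 29 hypoxia peaks beside 22 and 19 normoxia peaks.

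Over the whole of distal 22q, 29.8% of hypoxia members (27.95 to 31.7%) overlapped a normoxia peak, and 79.7% of normoxia members (76.9 to 82.4%) overlapped a hypoxia peak. In the whole lists the shares were 32.7% and 68.7%, and on the rest of chromosome 22 they were 36.5% and 77.5%. Each share is measured against a list of another length, so the shares of the 2 lists are not on equal terms. Strong peaks were mostly found in both conditions: 79.5% (75.8 to 82.9%) of strong hypoxia members and 98.9% (96.8 to 99.8%) of strong normoxia members were overlapped. In the whole lists 86.6% and 98.3% of strong peaks were overlapped, and on the rest of chromosome 22 90.9% and 98.7%. A peak of any strength that no peak of the other list overlapped is called a lone peak here. Distal 22q had 1654 lone hypoxia and 175 lone normoxia members, of which 105 and 3 were strong. The 3 strong ones in normoxia were chr22:42580829-42581345, with no protein-coding gene within 1000 bp, the TAFA5 peak given above, and chr22:47835487-47835855 within EPIC1.

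Of the 5 lone hypoxia peaks with the highest −log10 q-values, 4 were in or near genes. The first by q-value lay at TRABD (chr22:50185239-50185686, fold 2.45, −log10 q-value 24.4), and the second had no protein-coding gene within 1000 bp (chr22:44625990-44626338, fold 3.26). Next came the PKDREJ peak given above and a peak at KIAA0930 (chr22:45241129-45241507, fold 2.97). A peak in NUP50, a nuclear pore gene, followed (chr22:45183933-45184318, fold 4.54). A lone peak can still have a neighbour in the other list, and at the TRABD promoter the nearest normoxia peak was 6 bp from the window. These peaks were chosen by their values.

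**Figure D3:**
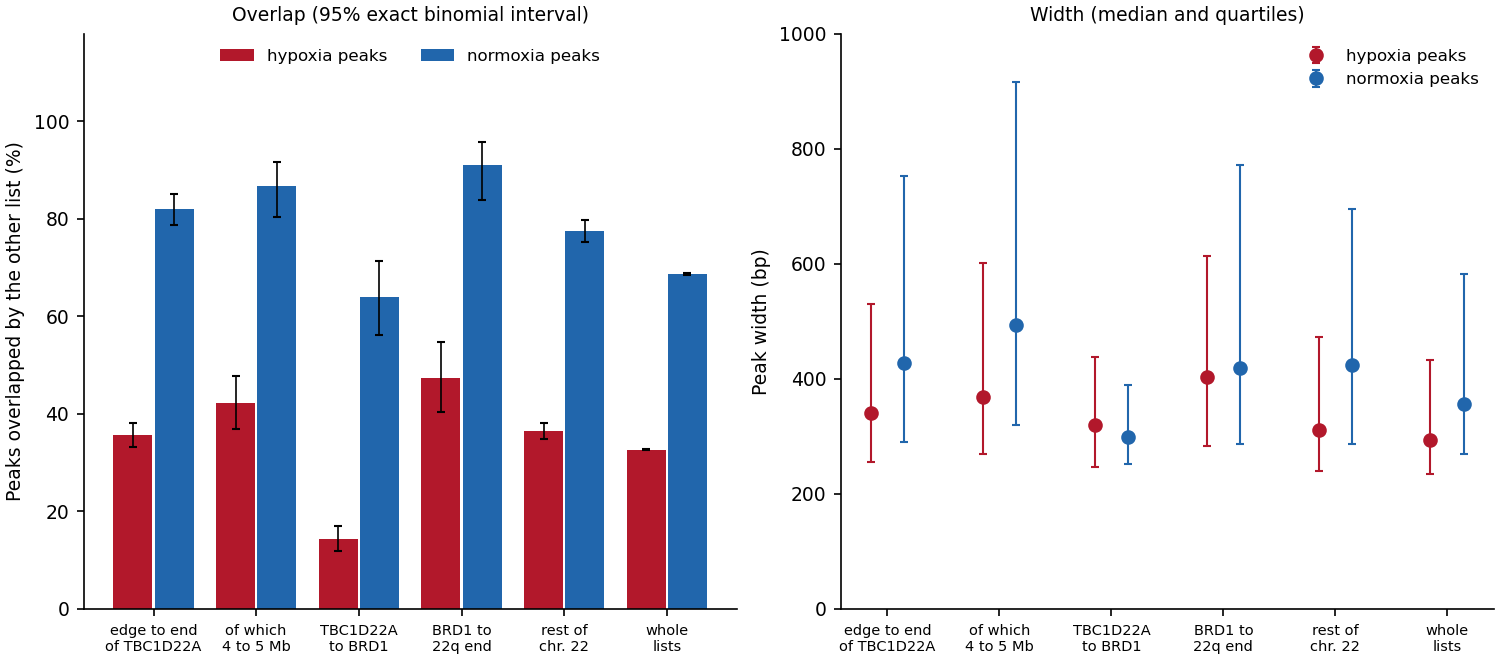
Left: share of hypoxia and of normoxia peaks overlapped by at least 1 bp of the other list, with 95% exact binomial intervals, for stretches of distal 22q, the rest of chromosome 22 and the whole lists. Right: median width (points) and quartiles (lines) of the same peaks in bp. The interval between TBC1D22A and BRD1 has the lowest shares (14.3% of hypoxia and 64.0% of normoxia peaks) and is the only stretch drawn where the hypoxia median width is the larger one.

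Hypoxia members were narrower than normoxia members, with a median of 336.5 bp (330 to 345) in the hypoxia list and 382 bp (365 to 410) in the normoxia list. The direction was general: the medians were 294 and 356 bp in the whole lists and 311 and 423.5 bp on the rest of chromosome 22. The narrowest peak was 215 bp in the hypoxia list and 245 bp in the normoxia list, both in the region and in the whole lists. These minima may be peak-calling settings, and their part in the width difference was not tested. Members that overlapped the other list went the other way, with 522.5 bp for hypoxia and 443 bp for normoxia, and lone members had medians of 300 and 281 bp. In the whole lists the overlapped peaks had a median of 445 bp in both, and the lone ones 263 and 276 bp. Among strong peaks alone the medians were 636 bp (601 to 693) for hypoxia and 894 bp (790 to 947) for normoxia. In the 558 pairs in which 1 peak met 1 peak, the median width was 528 bp for hypoxia and 429.5 bp for normoxia. Their summits were a median 62.5 bp apart, 65.9% of them within 100 bp, beside 61 bp and 66.9% in the whole lists.

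The width difference depended on where in the region the peaks lay. From 46 to 47 Mb the medians were 369 bp for hypoxia and 494 bp for normoxia, and between TBC1D22A and BRD1 they were 319.5 bp and 298.5 bp. With equal list lengths the sign of the whole region's difference turned, at 427 bp (415 to 441) for hypoxia and 382 bp for normoxia. A normoxia peak was met by 2 or more hypoxia peaks in 53 of 863 cases (6.14%, 4.63 to 7.96%), against 4.80% in the whole list and 7.30% (5.99 to 8.79%) on the rest of chromosome 22, and in 14 of 152 (9.21%, 5.13 to 14.97%) from 46 to 47 Mb. The widest member in both lists lay at TYMP, which encodes thymidine phosphorylase, and its neighbour CIMAP1B. It was chr22:50530089-50532610 (2522 bp) in hypoxia and chr22:50530131-50532599 (2469 bp) in normoxia. Wide peaks at BIK, a pro-apoptotic gene, measured 2090 bp and 2126 bp, and those at WNT7B, a Wnt ligand gene, 2068 bp and 1991 bp.

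Lone peaks rarely lay at promoters. Of overlapped hypoxia members 12.1% (9.79 to 14.8%) touched a RefSeq promoter window of any gene type, against 0.907% (0.508 to 1.49%) of lone hypoxia members. In normoxia the shares were 12.4% (9.99 to 15.05%) for overlapped members and 0.571% (0.0145 to 3.14%) for lone ones. Protein-coding spans with 1000 bp either side took 64.1% of overlapped and 52.4% of lone hypoxia members, and 64.1% and 54.9% of the normoxia ones. Elsewhere in the genome the promoter shares of overlapped peaks were 16.4% in hypoxia and 16.5% in normoxia, and those of lone peaks 1.44% and 1.47%. Lone peaks elsewhere lay in protein-coding spans in 53.8% of cases in hypoxia and 55.6% in normoxia, so that the low promoter share of lone peaks was general.

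Of the 96 protein-coding genes of distal 22q, 85 (88.5%) held peaks of both lists within their spans and 1000 bp either side, and 81.3% of genes genome-wide did. More hypoxia than normoxia peaks were found at 74 of them (77.1%), against 66.8% genome-wide. More normoxia peaks were found at 5, beside 1382 of the 19974 genes genome-wide, and equal numbers above 0 at 13. The median gene had 6 hypoxia and 3 normoxia peaks, beside 4 and 2 over all 19974 genes. Only hypoxia peaks were found at 6 genes (6.25%), beside a genome-wide share of 8.99%. The 6 were CYP2D6, PKDREJ, LOC124905156, MAPK11, SYCE3 and ACR. CYP2D6, a drug-metabolising cytochrome, has a near-identical neighbour, and reads can be split between such copies, so its 3 peaks are uncertain.

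Long genes carried the largest surplus of hypoxia peaks. After TBC1D22A with 152 hypoxia and 47 normoxia peaks came TAFA5 with 63 and 7. EFCAB6, a calcium-binding protein gene, had 85 and 39. CELSR1 had 65 and 32, PARVB, a focal adhesion protein gene, had 40 and 9, and PACSIN2, which shapes membranes in endocytosis, had 51 and 22. Normoxia numbers were higher by 1 at TRABD, ADM2, a vasodilator peptide gene, MIOX, an inositol-degrading enzyme gene, PHETA2 and SMDT1, a regulator of the mitochondrial calcium channel. ADM2 had 1 hypoxia and 2 normoxia peaks, PHETA2 had 2 and 3, and SMDT1 had 1 and 2. MIOX had no hypoxia peak and 1 normoxia peak, the single gene marked in normoxia only, beside 0.501% of genes genome-wide. That peak was weak, with a −log10 q-value of 3.16 over a background of 3.63 reads.

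**Figure D4:**
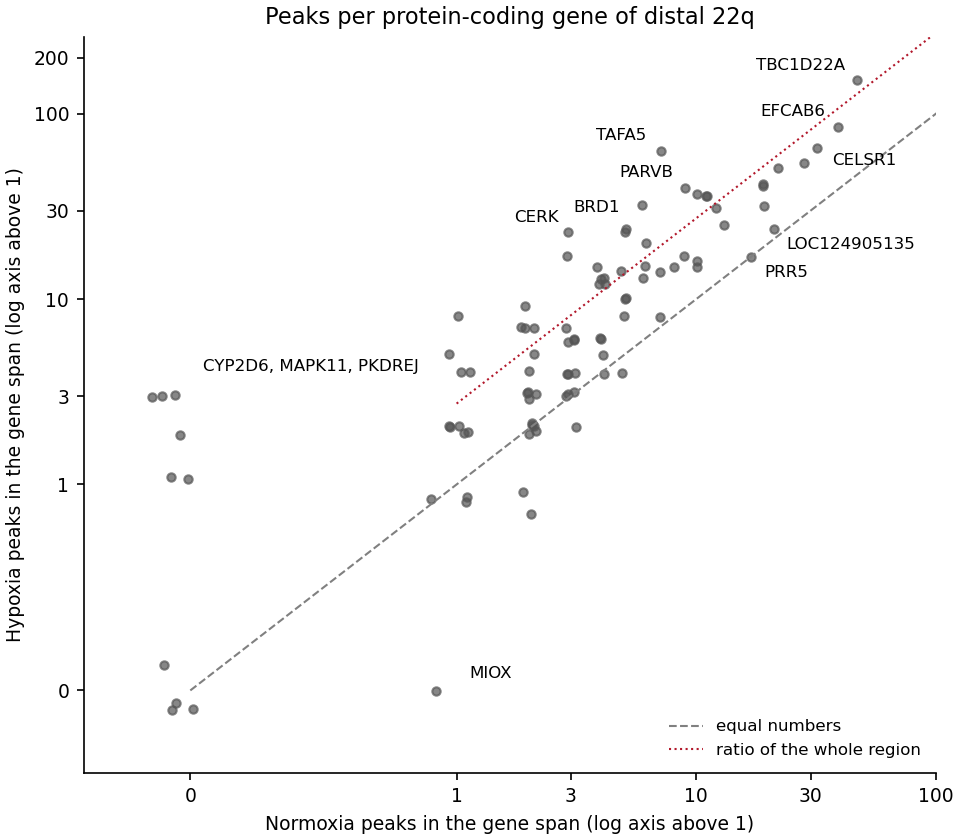
Hypoxia peaks (vertical) against normoxia peaks (horizontal) in the span of each of the 96 protein-coding genes, extended by 1000 bp; both axes are linear up to 1 and logarithmic above, and points are shifted slightly so that equal values show. Most points lie above the dashed line of equal numbers, TAFA5 (63 and 7) and CERK (23 and 3) lie above the dotted line of the region's ratio (2.73), and PRR5 (17 and 17) lies on equality.

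The peaks with the highest folds of the region were overlapped in both lists. In hypoxia they were at DENND6B (11.6), which activates a Rab GTPase, EFCAB6 (11.1), PPP6R2 (10.9), a protein phosphatase subunit, NDUFA6 (10.5), a subunit of respiratory complex I, RRP7A (10.5), a ribosome assembly factor, and RIBC2 (9.97). In normoxia they were at RRP7A (10.0), SHANK3 (8.73), RIBC2 and SMC1B (8.57 for 1 peak that both share), DENND6B (8.30) and EFCAB6 (8.20). These folds rest on unlike numbers of reads. The SHANK3 peak had 35 reads over a background of 3.13, near the lowest of the normoxia list, and the PPP6R2 peak had 57 over 4.34. At RRP7A the normoxia peak had 207 reads over 19.7. SMC1B encodes a cohesin subunit of meiosis. Each fold is the authors' value over the local background of 1 library and says nothing of a change. RRP7A has a similar pseudogene nearby, so its reads are uncertain.

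At promoters, most genes were marked in both conditions. Of the 74 genes with a window, 52 (70.3%, 58.5 to 80.3%) were marked in both conditions, 5 (6.76%, 2.23 to 15.1%) in hypoxia alone, none in normoxia alone and 17 in neither. Over all genes with a window the shares were 65.3% in both, 8.58% in hypoxia alone, 1.32% in normoxia alone and 24.8% in neither. The shares of the region were thus near those of all genes. The 5 were PKDREJ, MAPK11, a p38 kinase, SYCE3, a synaptonemal complex protein, SBF1, an inactive relative of lipid phosphatases, and TTLL8, a tubulin-modifying enzyme. The hypoxia peaks had folds of 2.99 at PKDREJ, 3.07 at MAPK11, 6.13 at SYCE3, 4.37 at SBF1 and 2.22 at TTLL8. Of these, the peaks of PKDREJ, SYCE3 and SBF1 were strong.

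The 5 differed in how far normoxia peaks were. At SBF1 a normoxia peak lay 1 bp from the window, whereas the nearest was 813 bp away at MAPK11, 3188 bp at TTLL8 and 18594 bp at SYCE3. The SYCE3 peak (chr22:50562570-50562882) touched the 50 bases after the start, and so lay outside the 250 bases shown. The MAPK11 peak (chr22:50270471-50270765) and the TTLL8 peak (chr22:50058487-50058869) covered parts of the sequences shown, and the MAPK11 gene held 3 hypoxia peaks and no normoxia peak. With strong peaks only, 6 genes had a promoter marked in hypoxia alone: PKDREJ, SBF1 and SYCE3 together with ADM2, PNPLA5 and SERHL2. These were 8.11% (3.03 to 16.8%) of the region's genes, near the 6.84% of all genes. SERHL2 has a near-identical copy and is uncertain, and in this count MAPK12 and TUBGCP6 were marked in normoxia alone (2.70%, against 0.987% of all genes).

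The gene lists that follow are read beside all 96 genes of the region, of which 88.5% held peaks of both lists and 77.1% more hypoxia peaks, and beside all genes, of which 81.3% and 66.8% did. Among the 17 genes of lipid and mitochondrial metabolism, 15 were marked in both conditions, near those shares. Their spans held 119 hypoxia and 51 normoxia peaks, with a median of 3 in each library, and numbers were higher in hypoxia for 10, equal above 0 for 5 and higher in normoxia for MIOX. SAMM50, which inserts proteins into the mitochondrial outer membrane, had 13 hypoxia and 6 normoxia peaks, PNPLA3, a lipid droplet hydrolase, 10 and 5, and TSPO, a cholesterol-binding mitochondrial protein, 3 and 3. CPT1B, which carries fatty acids into muscle mitochondria, had no peak in either list.

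All 11 chromatin, nuclear and cell cycle genes of the region had peaks in both lists and more of them in hypoxia, where 85 and 74 of all 96 did. They held 178 hypoxia and 67 normoxia peaks in all, with medians of 14 and 4. The list had 13 genes, but L3MBTL2 and RBX1 lie outside the region. TCF20, a transcriptional coregulator, had 42 hypoxia and 19 normoxia peaks, NUP50 had 13 and 4, and PHF21B, a chromatin-associated protein, had 37 and 10. HDAC10, a deacetylase of polyamines, had 3 and 2. Of their 9 known promoters 8 were marked in both conditions, against 70.3% over the region and 65.3% over all genes, and that of ZBED4 in neither.

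The 19 genes of adhesion, polarity and signalling held the most peaks, 509 in hypoxia and 215 in normoxia, of which 147 and 80 were strong. Medians were 17 and 9. More hypoxia peaks were found at 16, against 77.1% of the region's genes and 66.8% of all genes, more normoxia peaks at ADM2, and equal numbers at 2. FBLN1, which encodes the matrix protein fibulin-1, had 25 hypoxia and 13 normoxia peaks, WNT7B had 15 and 10, and PLXNB2, a semaphorin receptor, had 8 and 7. PRR5, a subunit of the mTORC2 kinase complex, had 17 and 17, and it shares peaks with the read-through gene PRR5-ARHGAP8 (41 and 19) and so does ARHGAP8 (31 and 12).

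The 14 genes of neural, germ line and other tissues held 274 hypoxia and 87 normoxia peaks, with medians of 11 and 4, and 43 and 24 strong ones. Numbers were higher in hypoxia for 13, against the same 77.1% and 66.8%, and equal for PANX2 at 2 and 2, and 3 genes, PKDREJ, SYCE3 and ACR, had hypoxia peaks only. None of the 10 known promoters of this list was marked in both conditions: 3 were marked in hypoxia alone and 7 in neither. EFCAB6, PANX2, SULT4A1 and SHISAL1 had no promoter window and so are not in this count, although their spans held peaks of both lists. Over the region 70.3% were marked in both, 6.76% in hypoxia alone and 22.97% in neither, and over all genes 65.3%, 8.58% and 24.8%. SHANK3 had 7 hypoxia and 2 normoxia peaks. MPPED1 had 32 hypoxia and 6 normoxia peaks, none strong in either list, and ACR, the sperm protease acrosin, had 1 hypoxia peak.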

How the data were processed

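H4K5ac was measured by chromatin immunoprecipitation and sequencing with 75-base single-end reads, in 1 hypoxia and 1 normoxia library of FaDu cells. The submitters' processing notes name MACS2, SICER and the build hg38; versions and settings are not given in the sources here. The deposited peak lists hold 1 row per peak with a score (10 times the −log10 p-value in nearly all rows), the authors' fold enrichment over local background as a ratio, and the −log10 p and −log10 q of the authors' peak caller. No read counts were used, so library depth is unknown, and both lists were called per library.

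Pileup and local background were solved from fold and p-value under a Poisson model, which gave a whole pileup for at least 99.99% of peaks. A peak belonged to distal 22q by its summit. Peaks overlapped where they shared at least 1 bp. Intervals are exact (Clopper-Pearson) for shares and for ratios of peak numbers, and from the ranks of the widths for medians, all at 95%, and cover counting error only; peaks are not replicates. A bin was counted with at least 10 peaks in both lists together. Gene spans and promoter windows (250 bases before to 50 after a start) came from RefSeq, with 1000 bp added to either side of spans. Genes were named by rule: those with an end from 46 to 47 Mb, the 6 largest hypoxia and 4 largest normoxia surpluses, the 6 highest folds in each list, and up to 4 members of each gene list. Other genes named, among them TRABD, SBF1 and the long non-coding genes, were chosen after their values were seen. The region, the members and the lists were chosen with earlier results of these data known. Computation used Python 3.11.15, numpy 2.4.6, scipy 1.17.1, pandas 2.3.3 and matplotlib 3.10.9, and the scripts were tested on simulated data.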

Additional observations from a re-analysis of the deposited data

How the results depend on the processing

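No paired analysis was possible because each condition had 1 library. Of 31 recomputed values, 10 stayed within their error (counts within 1.5 times), 19 moved further and 2 reversed; the alternatives for the interval between TBC1D22A and BRD1 were added after the data were seen. With strong peaks only (−log10 q-value of at least 10), the hypoxia to normoxia ratio of peak numbers was 1.87 for distal 22q and 5.82 for the interval, overlap was 53.0% of hypoxia and 94.5% of normoxia peaks, the median width difference (hypoxia minus normoxia) was -258 bp, 7 of 28 bins reached 2.5 times and 12 genes had hypoxia peaks only. With equal list lengths the ratios were 1.55 for distal 22q, 1.51 from 46 to 47 Mb and 2.09 for the interval, overlap was 45.0% and 70.5%, 6 bins reached 2.5 times, and the width difference reversed to 45 bp. Stitching peaks closer than 1000 bp gave ratios of 2.38 for distal 22q and 3.52 for the interval and a width difference of 50 bp (-75 to 170), reversed in sign with an interval that covers 0. Asking for an overlap of 50% of both peaks left 20.9% of hypoxia and 57.0% of normoxia peaks overlapped. With 500-kb bins, 9 of 18 reached 2.5 times, against 18 of 35 with 250-kb bins, so the count moved with the number of bins. Counting peaks at gene ends alone gave 11 genes with hypoxia peaks only. For these counts of bins and genes under other settings, no genome-wide share at the same setting is given. Whether they stand above those of all bins or all genes is thus not shown. The causes were not tested. With 1 library per condition, a difference between conditions cannot be told apart from one between libraries. Depth, fragment length and input controls are not given in the sources, and the background solved from the peaks differed between the libraries within the region.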
